A study of Arabidopsis thaliana with 4 samples.

Results

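Polysomal mRNA of dark-grown Arabidopsis thaliana seedlings was set against total mRNA of seedlings grown in the same way, gene by gene. The members were the genes with a value in both dark libraries, 18584 of 33602 gene entries in the deposited table. Of these, 17428 had a mean of at least 1 RPKM over both dark libraries and carry the counts below, and 1156 lay under that level. A further 1048 genes had values for total mRNA and 509 for polysomal mRNA without the other fraction, and entered no comparison. RPKM is the number of reads of a gene per kilobase of its length, scaled to the reads of the library.

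The study sequenced polysomal and total mRNA of seedlings kept in darkness or lit for 4 h. All seedlings were of accession Col-0, labelled wild type, and had grown for 4 days in the dark on MS plates. Each fraction in each condition is represented by 1 library, so no difference below has a replicate check, and no p-value is given. Polysomal RNA had been extracted with phenol and chloroform and total RNA by the Pine Tree method, so fraction and extraction method cannot be told apart. The material was whole seedlings, and more mRNA per cell cannot be told apart from more cells that hold it. The lit pair, polysomal and total mRNA after 4 h of white light, serves below as a second pair of libraries with the same difference in extraction. Both dark libraries held the transcripts chosen as markers of a seedling grown in darkness. These levels were not set against the lit pair, so they do not tell dark from lit libraries. PORB, a protochlorophyllide reductase, had 845 RPKM in polysomal and 272 RPKM in total mRNA. PORA, the reductase that etiolated tissue accumulates, had 311 RPKM in polysomal and 110 RPKM in total mRNA, and the photoreceptor gene PHYA had 209 polysomal and 368 total RPKM.

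Polysomes are mRNAs that carry several ribosomes at once, and they are separated from free ribosomes and free mRNA by their weight. The share of a transcript found on polysomes depends on how often ribosomes start on it and on how many can sit on its reading frame, so it is widely used as a measure of translation. Etiolated seedlings hold plastids that are not yet green, and their translation is known to be low in darkness and to increase when light arrives. Non-coding RNAs lack a long reading frame and are as a rule not translated.

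The listed reads numbered 77849944 in polysomal and 64950412 in total mRNA of the dark, and 61006149 in polysomal and 91087442 in total mRNA of the lit pair. The median gene had 1029 reads in the polysomal and 946 reads in the total library of the dark. The 10 most abundant genes took 7.38% of the polysomal and 5.04% of the total reads. In the polysomal dark library 19.8% of the read values were not whole numbers, and in total mRNA all were whole. Families of near-identical copies may therefore divide their reads differently in each fraction, and such genes are named as uncertain below.

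The ratio of polysomal to total mRNA fell with gene length from 0.5 kb upward. The ratio is given as log2 of (RPKM + 1) of the polysomal over the total library, a scale on which differences between weakly expressed genes look smaller. Its median was 1.52 for the 926 genes of 0.5 to 0.75 kb, 1.04 for the 1847 genes of 0.75 to 1 kb, -0.22 for the 4402 genes of 1.5 to 2 kb and -0.95 for the 1175 genes of 3 to 4 kb. It reached -1.44 for the 238 genes of 5 kb and over. In the shortest class, the 131 genes under 0.5 kb, the median was 1.14 and the middle 50% of genes ran from -0.13 to 2.48, the widest of the 11 classes. At least 2-fold higher in polysomal mRNA were 68.9% of the genes of 0.5 to 0.75 kb, and at least 2-fold lower were 74.4% of those of 5 kb and over. Across genes, the rank correlation of ratio and length was -0.65 (Spearman's rho, 17428 genes that share the same pair of libraries).

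**Figure D1:**
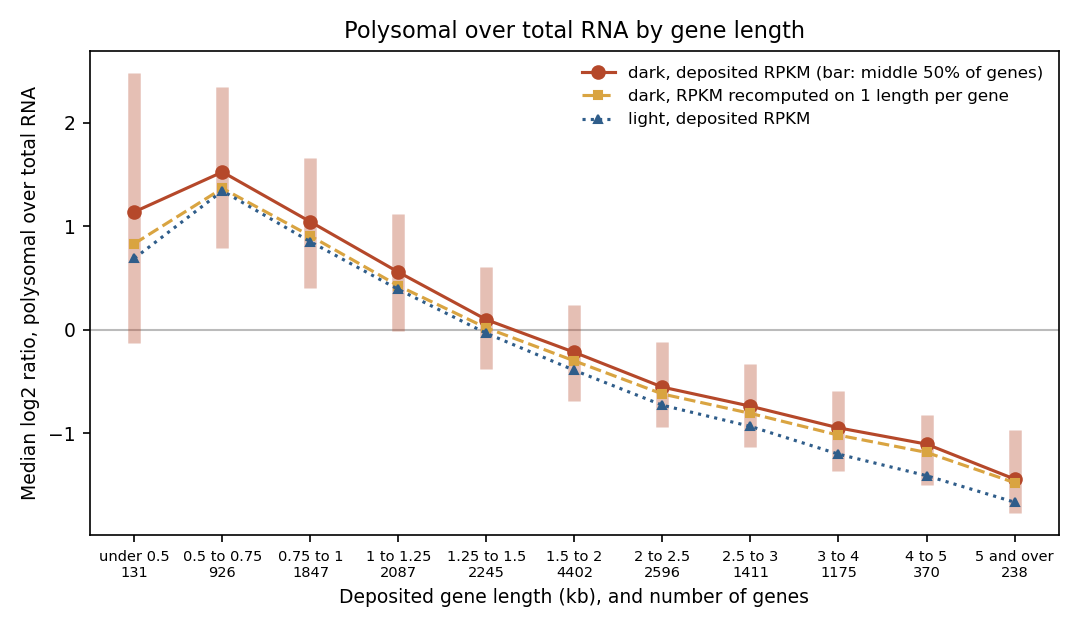
Median log2 ratio of polysomal over total mRNA (vertical axis) in 11 classes of deposited gene length in kb (horizontal axis, with the number of genes), for the dark pair on deposited RPKM with bars over the middle 50% of genes, for the dark pair on 1 length per gene, and for the lit pair. All 3 lines fall from the class of 0.5 to 0.75 kb to that of 5 kb and over, from 1.52 to -1.44 for the deposited dark values.

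The ratio went with the coding length more than with the untranslated regions. The rank correlation of the ratio, computed on reads, was -0.65 with coding length, -0.18 with the length of the 5′ untranslated region and -0.08 with that of the 3′ untranslated region (16976 protein-coding genes). Among genes with 300 to 600 coding nucleotides, the median ratio on reads lay between 0.68 and 1.12 in 4 bands of summed untranslated length. Among genes with 1200 to 1800 coding nucleotides it lay between -0.60 and -0.38 in the same bands. The medians of these bands of coding length did not overlap.

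The deposited polysomal RPKM carried a length of their own. From a gene's reads, its RPKM and the listed reads, the length behind each RPKM was worked back. In total mRNA it was 100.8% of the deposited length at the median, with the 1st percentile of genes at 100.1% and the 99th at 101.4%. In polysomal mRNA it was 96.4% at the median, it was under 80% for 1790 genes (10.3%) and under 50% for 276. A shorter length raises an RPKM without any more reads. Which region the polysomal reads were counted over is not given in the sources used here, so ratios were also taken on reads relative to the listed reads of the library (RPM). Length cancels there only where both fractions were counted over the same region, so for genes with unlike lengths neither scale is sure and the values of both are needed. Among the genes at least 2-fold higher by RPKM within their length class, 29.8% had a length under 80%, and among those lower 12.9%.

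Each gene was therefore compared with genes of its own length. The class-centred ratio is the log2 ratio minus the median of the gene's length class, so that 0 is the typical gene of that length. On uncentred ratios 2905 genes (16.7%) were at least 2-fold higher and 2869 (16.5%) at least 2-fold lower in polysomal mRNA. With the sums of nuclear RPKM set equal, a shift of 0.59 on the log2 scale, this split became 1644 higher and 6311 lower, so the uncentred split depends on the scaling. Class-centred, 1768 genes (10.1%) were higher and 1531 (8.78%) lower. On reads the same counts were 1583 (9.08%) and 1554 (8.92%). Past 2-fold on both scales were 1463 genes higher (8.39% of all tested) and 1390 lower (7.98%), and these are the calls used below unless another scale is named.

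The lit pair of libraries repeated much of this order. Of the 1463 genes higher in the dark, 789 (53.9%) were also higher in the light, and they made up 71.3% of the 1107 genes higher there. Of the 1390 lower genes 813 (58.5%) were lower in the light, 71.6% of the 1136 lower there. The percentage of all tested genes called in the light was 6.35% higher and 6.52% lower. The class-centred ratios on reads had a rank correlation of 0.85 between the dark and the lit pair across 17428 genes. Both pairs share the gene lengths, the same extraction difference and the same lists of reads per gene, but no library.

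Several of the 10 genes furthest above their length class encode plastid proteins. RBCS1B (AT5G38430, chromosome 5, 15383167 to 15385320, minus strand of TAIR10.1), a small subunit of Rubisco, had 298 RPKM in polysomal and 4.45 RPKM in total mRNA. AGP13 (AT4G26320, chromosome 4, 13317053 to 13317640), which encodes an arabinogalactan peptide of the cell surface, had 245 polysomal and 2.53 total RPKM, with 7157 polysomal and 76 total reads. Its class-centred ratio was 4.99 on either scale. MSRB6, a methionine sulfoxide reductase, had 28.1 RPKM in polysomal and 0.65 RPKM in total mRNA, and ACBP6, which binds acyl-CoA esters in the cytosol, had 5894 polysomal and 437 total RPKM. CAB2, an antenna protein of photosystem II, had 165 RPKM in polysomal and 7.54 RPKM in total mRNA. CA1, a plastid carbonic anhydrase, had 132 polysomal and 13.9 total RPKM. The small zinc finger gene MIF1, the plastid fatty acid synthesis gene BCCP2, RBCS3B and LSH9 complete the 10 highest among genes that have a symbol and average 10 RPKM or more. That mean can be reached through the polysomal library alone, as it was for MSRB6 and AGP13.

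For 8 of these 10 genes the polysomal length was under 80% of the deposited one, so the size of their difference depends on the scale. BCCP2 stood at 4.31 by RPKM and 2.17 on reads, where it had 3809 reads in polysomal and 1795 in total mRNA. MSRB6 stood at 4.69 by RPKM and 3.37 on reads. All 10 were past 2-fold on reads as well, and all 10 were past 2-fold on both scales in the lit pair. RBCS1B, RBCS3B and CAB2 have near-identical copies and polysomal reads that are not whole, so their own values are uncertain.

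At the other end lay regulators, enzymes and a microRNA precursor. EBP (AT3G16770, chromosome 3, 5705541 to 5707084, plus strand), an ethylene response factor, had 38.6 RPKM in polysomal and 367 RPKM in total mRNA. DI19 (AT1G56280, chromosome 1, 21072855 to 21074877, minus strand), a zinc finger protein named for its induction by drought, had 219 polysomal and 1308 total RPKM, with 20432 polysomal and 105509 total reads. Both were among the well-measured transcripts of total mRNA. ENODL1, an early nodulin-like protein, had 2.70 RPKM in polysomal and 36.6 RPKM in total mRNA. CEP2, a cysteine endopeptidase, had 8.59 polysomal and 85.4 total RPKM, and HSD2, a hydroxysteroid dehydrogenase, had 5.01 polysomal and 57.8 total RPKM. BHLH32, a factor of the bHLH family, had 2.11 RPKM in polysomal and 18.6 RPKM in total mRNA. TPX2, a thioredoxin-dependent peroxidase, had 48.9 polysomal and 731 total RPKM, and LpxC1 had 2.49 polysomal and 25.1 total RPKM. These last genes have polysomal reads that are not whole and overlap other loci, so their values are uncertain. MIR156f and DR4 complete the 10 lowest. All 10 were past 2-fold on reads, and 9 of them on both scales in the lit pair. The exception was DR4, which had 5.44 RPKM in polysomal and 30.3 RPKM in total mRNA of the dark, and, in the light, 17.2 polysomal and 20.8 total RPKM.

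Long genes were mostly below 0 before centring, and the extremes within their classes are given here. Among genes of 3 to 4 kb BGAL1, a beta-galactosidase of the cell wall, had 73.4 RPKM in polysomal and 534 RPKM in total mRNA, 7.62-fold lower in reads. INO80, a chromatin remodeller of over 5 kb, had 4.68 polysomal and 38.2 total RPKM. The highest of these classes served the plastid. CaS, a thylakoid calcium-sensing protein, had 1816 reads in polysomal and 1083 reads in total mRNA and stood 2.44 above its class by RPKM and 1.43 on reads. FZL, a dynamin-like protein of plastid membranes, had 2542 polysomal and 2981 total reads, which was 1.33 above its class by RPKM and 0.75 on reads, so it was not past 2-fold on both scales.

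Called well-measured here are genes with whole reads, no overlapping locus and a polysomal length within 10% of the deposited one. This choice was made after values had been seen. It left 2284 of the 4600 genes that have a symbol and average 10 RPKM or more. A gene can reach that mean through the fraction where it is high alone. ELIP1 had 108 and MLP423 had 68 reads in total mRNA, so being well-measured does not mean many reads in both fractions. Highest among them was FBA1, a plastid aldolase of the Calvin cycle, with 76.5 RPKM in polysomal and 8.43 RPKM in total mRNA. In RPM this was 8.47-fold (95% interval 7.93 to 9.05; exact binomial intervals here and below cover counting error only). ELIP1, an early light-induced protein, had 38.6 RPKM in polysomal and 1.74 RPKM in total mRNA, 20.7-fold in reads (17.1 to 25.4). PSAK, a subunit of photosystem I, had 540 polysomal and 45.6 total RPKM, 11.2-fold in reads (10.8 to 11.7). Plastid proteins held several of the first places in this set too, a ranking of the same values and no separate support.

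Storage protein and ribosomal protein transcripts stood beside them. CRU3 and CRA1, which encode the seed storage globulins called cruciferins, had 116 and 125 RPKM in polysomal mRNA, against 18.9 and 27.2 RPKM in total mRNA in the same order. RPL23AA, a protein of the large ribosomal subunit, had 262 RPKM in polysomal and 45.1 RPKM in total mRNA. AGP9, an arabinogalactan protein, had 953 RPKM in polysomal and 205 RPKM in total mRNA, 4.16-fold in reads (4.10 to 4.22). MLP423, CDSP32 (a plastid thioredoxin), PHT2;1 (a plastid phosphate transporter), PSB28 and the growth-regulating factor GRF2 make up the rest of the first 12.

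The 12 lowest of the same well-measured genes held abundant housekeeping transcripts as well as stress genes. TCTP, the translationally controlled tumour protein, had 1065 RPKM in polysomal and 3137 RPKM in total mRNA, with 80066 polysomal and 198803 total reads. ARFA1E, a small GTPase of vesicle traffic, had 526 polysomal and 1381 total RPKM. MLP34 had 149 RPKM in polysomal and 700 RPKM in total mRNA. HIS1-3, a linker histone induced by drought, had 88.9 polysomal and 253 total RPKM, and HAI1, a phosphatase of abscisic acid signalling, had 5.57 polysomal and 39.7 total RPKM. HB-12, a homeodomain factor, had 29.8 RPKM in polysomal and 126 RPKM in total mRNA, 4.66-fold lower in reads (4.45 to 4.88). EXT4, a cell wall extensin, and AAT1, an amino acid transporter, were also in this set, with EBP, DI19, DR4 and BHLH32.

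**Figure D2:**
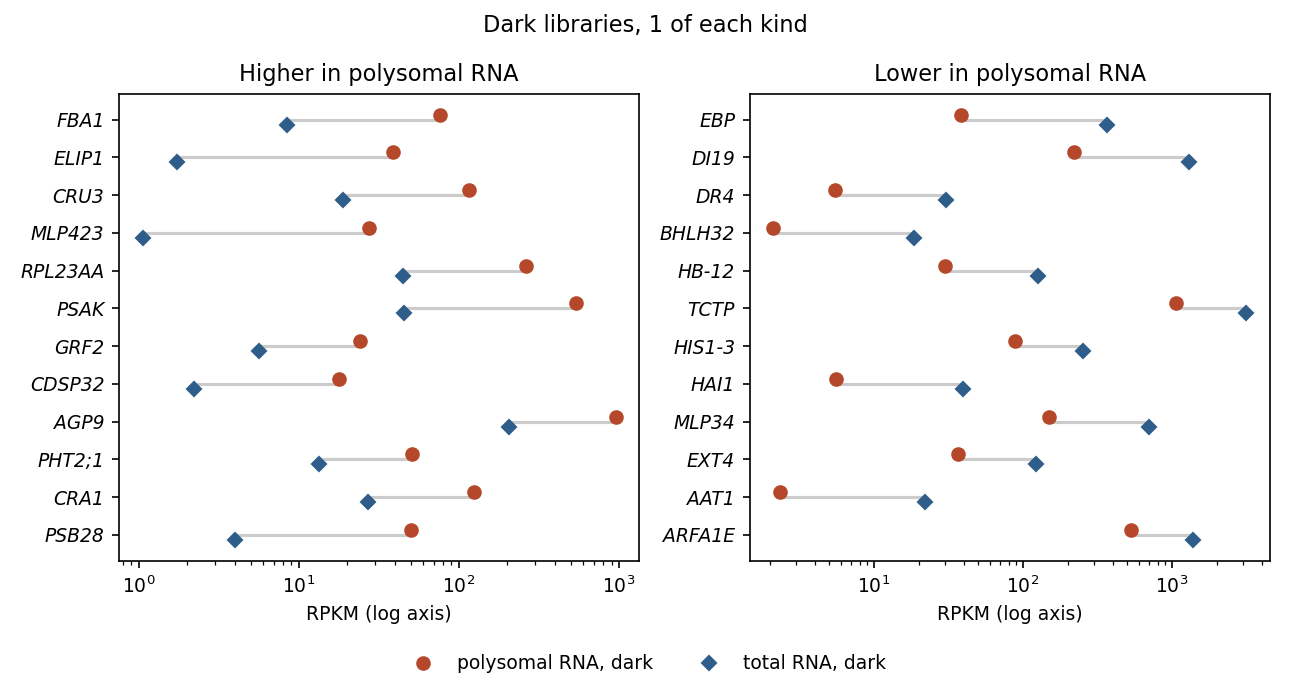
RPKM in polysomal mRNA (circles) and total mRNA (diamonds) of the dark, on a log axis, for the 12 highest and 12 lowest class-centred genes with whole reads, no overlap and the same length in both fractions. The symbols are furthest apart for MLP423, with 27.4 RPKM in polysomal and 1.06 RPKM in total mRNA, and closest for ARFA1E, with 526 polysomal and 1381 total RPKM.

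The sequence around the start codon is shown for the first 6 genes of each end, because the bases after the start codon differed in frequency between genes high and low on polysomes. Sequences are RefSeq's on TAIR10.1, 5′ to 3′ on the gene's strand, with 10 bases before the start codon. Capitals mark ATG, and the following GC where it is present. High on polysomes were these genes:
FBA1 (chr2:9130146-9130162, minus): actagcaacaATGGCgt
ELIP1 (chr3:8085439-8085455, minus): agctttagaaATGGCaa
CRU3 (chr4:14087586-14087602, plus): caaaaagaaaATGgtta
MLP423 (chr1:8501452-8501468, minus): ttagaaacaaATGgggt
RPL23AA (chr2:16475039-16475055, plus): atttcaagccATGtctc
PSAK (chr1:10722315-10722331, plus): aactaagaaaATGGCta
Low on polysomes were these:
EBP (chr3:5705774-5705790, plus): aacagagaaaATGtgtg
DI19 (chr1:21074719-21074735, minus): aggggcaaagATGgacg
DR4 (chr1:27569645-27569661, minus): agaaacaatcATGaagg
BHLH32 (chr3:9369588-9369604, plus): aaaccaaaaaATGtacg
HB-12 (chr3:22915233-22915249, minus): ggtgaaaaccATGgaag
TCTP (chr3:5670723-5670739, minus): ataagcgaccATGttgg

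Of these, FBA1, ELIP1 and PSAK have ATGGC and no gene of the low set has it. A GC after the start codon makes the second codon one for alanine. ATGGC at the annotated start was found in 36.4% of the genes higher in polysomal mRNA (516 of 1416), in 21.6% of those lower (252 of 1167) and in 24.9% of all genes with a context (4091 of 16457). Without genes annotated to plastids or ribosomes, whose proteins often begin with alanine, the shares were 28.0% of higher, 20.4% of lower and 21.9% of all genes. In the lit pair they were 36.7% of higher and 20% of lower genes. An A at the -3 position, counted back from the A of the start codon, stood in 55% of the higher, 48.7% of the lower and 49.1% of all genes. In each of the 8 length classes from 0.5 to 4 kb ATGGC stood in a larger share of higher than of lower genes, but the gap varied. It was widest in the class of 0.75 to 1 kb, with 48.2% of higher and 26.0% of lower genes, and narrowest in that of 3 to 4 kb, with 25.5% of higher and 21.2% of lower genes. Under 0.5 kb, ATGGC stood in 12.5% of 32 higher genes and in 15.2% of all 66. A match describes the annotated start and says nothing of its use.

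Transcripts for the photosynthetic apparatus lay far above their length class while the seedlings were still in the dark. Over all tested genes, 8.39% were higher and 7.98% lower on both scales, and the median class-centred ratio is 0 by construction. All 4 Rubisco small subunit genes were higher. RBCS1A had 5313 RPKM in polysomal and 528 RPKM in total mRNA, and RBCS2B had 2374 polysomal and 351 total RPKM. Since these copies share reads, their sum is safer than the value of a single copy. It was 918569 reads, 1.18% of the polysomal library, against 94502 reads, 0.145% of the total library. The polysomal lengths of these genes were 46.6% to 85.3% of the deposited ones. None had the same length in both fractions, so the size of this difference is not sure. Of 26 nuclear photosystem subunits 22 were higher and none lower, with a median of 1.70. PSAE-1, of photosystem I, had 867 RPKM in polysomal and 40.5 RPKM in total mRNA, and PSB27, of photosystem II, had 352 polysomal and 33.6 total RPKM. PSAG and PSBQ-2 were the lowest of the list, PSAG with 403 RPKM in polysomal and 227 RPKM in total mRNA and PSBQ-2 with 142 polysomal and 76.3 total RPKM. Among the 12 subunits with the same length in both fractions 10 were higher, at the same median of 1.70.

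The antenna genes were more divided. Of 20 light-harvesting genes 12 were higher and none lower, with a median of 1.29. CAB3 had 200 RPKM in polysomal and 16.3 RPKM in total mRNA, whereas LHCA4, an antenna protein of photosystem I, had 193 polysomal and 252 total RPKM. LHCB4.2 had 327 RPKM in polysomal and 278 RPKM in total mRNA. Polysomal reads were not whole in 12 of the 20. Of 12 genes for the plastid ATP synthase and its electron carriers 6 were higher. DRT112, a plastocyanin, had 651 RPKM in polysomal and 100 RPKM in total mRNA, and PGR5, of cyclic electron flow, had 130 polysomal and 13.7 total RPKM. PGRL1B, its partner, had 12.03 RPKM in polysomal and 23.9 RPKM in total mRNA. Only 1 of 6 members with the same length in both fractions was higher, at a median of 0.41.

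Genes for ribosomal proteins differed by the ribosome they build. Of 35 nuclear genes for plastid ribosomal proteins 21 were higher and none lower, with a median of 1.37, and 13 of 22 with the same length were higher, at 1.30. AT3G54210, of the L17 family, had 386 RPKM in polysomal and 54.2 RPKM in total mRNA, and GHS1 had 186 polysomal and 16.6 total RPKM. Of 14 genes for mitochondrial ribosomal proteins 1 was higher and none lower, with a median of -0.05. MRPL11 had 29.5 RPKM in polysomal and 25.9 RPKM in total mRNA. Cytosolic ribosomal proteins lay between. For the large subunit 43 of 112 were higher and 2 lower (median 0.68), and for the small subunit 22 of 78 were higher and 3 lower (median 0.69). The L35Ae gene AT1G41880 had 327 RPKM in polysomal and 21.6 RPKM in total mRNA. The S30 gene AT4G29390 had 270 polysomal and 13.6 total RPKM. The large-subunit genes together took 1.44% of the polysomal and 0.435% of the total reads, and the small-subunit genes 1.14% of the polysomal and 0.402% of the total reads.

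Copies of the same ribosomal protein often diverged, and near-identical copies share reads in the polysomal counts. The S5-family genes AT1G58684 and AT1G59359 had 0 polysomal reads in the dark, against 5281 and 1802 reads in total mRNA. In the lit pair the same genes had 72.6 and 74.3 RPKM in polysomal mRNA, against 45.7 and 77.8 RPKM in total mRNA. Polysomal reads were not whole in 23 of the 112 large-subunit and 19 of the 78 small-subunit genes. Factors that act on ribosomes stayed near their length class. Of 47 genes for initiation factors 2 were higher and 1 lower (median 0.12), and of 13 for elongation factors none was higher or lower (median 0.01), on both scales and on RPKM alone. AT5G60390, an elongation factor 1-alpha gene, had 612 RPKM in polysomal and 520 RPKM in total mRNA, and EIF4A-III had 52.1 polysomal and 121 total RPKM.

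Arabinogalactan proteins, lipid transfer proteins and aquaporins had medians above their length class. Of 26 arabinogalactan proteins and peptides 12 were higher and 1 lower, with a median of 0.99, and together they took 1.16% of the polysomal and 0.191% of the total reads. AGP24 had 2061 RPKM in polysomal and 68.0 RPKM in total mRNA, while AGP27, which stood lowest, had 1.73 polysomal and 1.15 total RPKM. Of the 10 with the same length in both fractions 2 were higher, 1 was lower and the median was 0.68. Of 45 genes annotated as lipid transfer proteins 16 were higher and 6 lower, with a median of 0.81. LTP2 had 12767 RPKM in polysomal and 990 RPKM in total mRNA, whereas LTP3 had 1.10 polysomal and 10.4 total RPKM. DIR1, a lipid transfer protein of systemic defence, had 115 RPKM in polysomal and 4.69 RPKM in total mRNA. Of 17 aquaporins of the plasma membrane and tonoplast 4 were higher and none lower (median 0.73), but of the 7 with the same length in both fractions none was higher and the median was 0.29. GAMMA-TIP had 2918 RPKM in polysomal and 366 RPKM in total mRNA, 6.97-fold in reads (6.88 to 7.05), and PIP2;8 had 6.26 polysomal and 3.86 total RPKM.

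Lists of enzymes and regulators of elongation growth had medians nearer to their length class. Of 21 expansins, which loosen the cell wall, 1 was higher and 1 lower (median 0.02). The higher gene, EXP3, had 281 RPKM in polysomal and 103 RPKM in total mRNA. Of 23 XTH genes, which remodel xyloglucan, 4 (17.4%) were higher and 1 (4.35%) lower (median 0.22). Over all tested genes 8.39% were higher and 7.98% lower. XTH33 had 42.4 RPKM in polysomal and 9.33 RPKM in total mRNA, and XTH6 had 1.44 polysomal and 5.37 total RPKM. Of 59 small auxin-induced SAUR genes 8 (13.6%) were higher and 8 (13.6%) lower (median 0.22). AT5G18030 had 251 RPKM in polysomal and 22.8 RPKM in total mRNA, while AT2G46690 had 24.5 polysomal and 43.7 total RPKM. Among the 21 SAUR genes with the same length in both fractions none was higher and 4 were lower. Of 26 Aux/IAA repressors 1 was higher, IAA19, with 332 RPKM in polysomal and 109 RPKM in total mRNA. IAA18, with 9.86 polysomal and 32.8 total RPKM, was 1 of 2 that were lower. No auxin response factor of 13 was higher or lower.

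Core histones and subunits of the respiratory chain were also often higher. Of 36 core histone genes 20 were higher and 1 lower, with a median of 1.12, and 9 of 22 with the same length were higher, at 0.89. HTA6, a histone H2A, had 197 RPKM in polysomal and 15.6 RPKM in total mRNA. The histone gene AT1G09200 had 258 polysomal and 19.0 total RPKM. HTA9, the H2A variant gene that was lowest, had 163 RPKM in polysomal and 234 RPKM in total mRNA. Of 59 nuclear genes for the respiratory chain 20 were higher and 1 lower, with a median of 0.79, and 15 of 44 with the same length were higher. AT5G47570, a subunit of complex I, had 257 RPKM in polysomal and 23.5 RPKM in total mRNA, and AT1G51650, the ATP synthase epsilon chain, had 219 polysomal and 15.2 total RPKM. Of 27 proteasome subunits 3 were higher and 1 lower (median 0.42), and of 14 subunits of the vacuolar ATPase none was higher or lower.

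Among regulators and RNA-binding proteins, the clock genes were lowest. Of 20 clock genes none was higher and 5 were lower, with a median of -0.46. LCL1, a MYB factor of the clock, had 34.6 RPKM in polysomal and 120 RPKM in total mRNA. PRR9, a pseudo-response regulator, had 0.954 polysomal and 4.89 total RPKM, while PRR3 had 7.52 polysomal and 6.12 total RPKM. Of 18 SR proteins, which select splice sites, 1 was higher and 1 lower (median -0.33). RS2Z32 had 85.5 RPKM in polysomal and 39.8 RPKM in total mRNA, and RS31 had 23.3 polysomal and 36.3 total RPKM. Of 8 factors of nonsense-mediated decay and the exon junction complex 1 was lower, UPF3, with 10.6 polysomal and 34.2 total RPKM. Of 165 receptor-like kinases 12 (7.27%) were higher and 9 (5.45%) lower, no more than over all genes. Of 89 cytochromes P450 4 (4.49%) were higher and 11 (12.4%) lower. CYP71B23 had 2.96 RPKM in polysomal and 24.0 RPKM in total mRNA.

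Genes with a conserved peptide-coding frame upstream of the main one, which holds ribosomes back in known cases, showed no common direction. Of 13 such genes 2 were higher and 2 lower, with a median of 0.38. SAMDC, of polyamine synthesis, had 853 RPKM in polysomal and 620 RPKM in total mRNA, and BZIP53 had 28.3 polysomal and 80.5 total RPKM. The bZIP44 gene had 889 polysomal reads against 1 read in total mRNA, where a value of 1 may stand for 0. Counted from the annotation, genes without an upstream reading frame that ends before the coding start had a median class-centred ratio of -0.02, and genes with 3 or more had 0.08. The shares of higher genes in these bands were 8.59% and 9.21%.

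Markers of storage tissue and of the root were checked in the same way. Of 11 seed storage and oil body genes 8 had a value in both dark libraries and 7 reached the mean of 1 RPKM. Of these 7, 3 were higher and 2 lower. The summed level of the 7 was 408 RPKM in polysomal and 73.3 RPKM in total mRNA. SESA2, a small albumin, had 1.11 RPKM in polysomal and 2.95 RPKM in total mRNA, against the higher cruciferin values above. Of 8 root regulators 3 were measured, with a summed level of 32.5 RPKM in polysomal and 35.5 RPKM in total mRNA, and all 3 were close to their length class. SCR had 14.5 RPKM in polysomal and 17.3 RPKM in total mRNA, SHR had 15.1 polysomal and 16.7 total RPKM, and MYB66 had 2.93 polysomal and 1.43 total RPKM. The part of seed remains or of root in other genes' ratios was not tested.

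**Figure D3:**
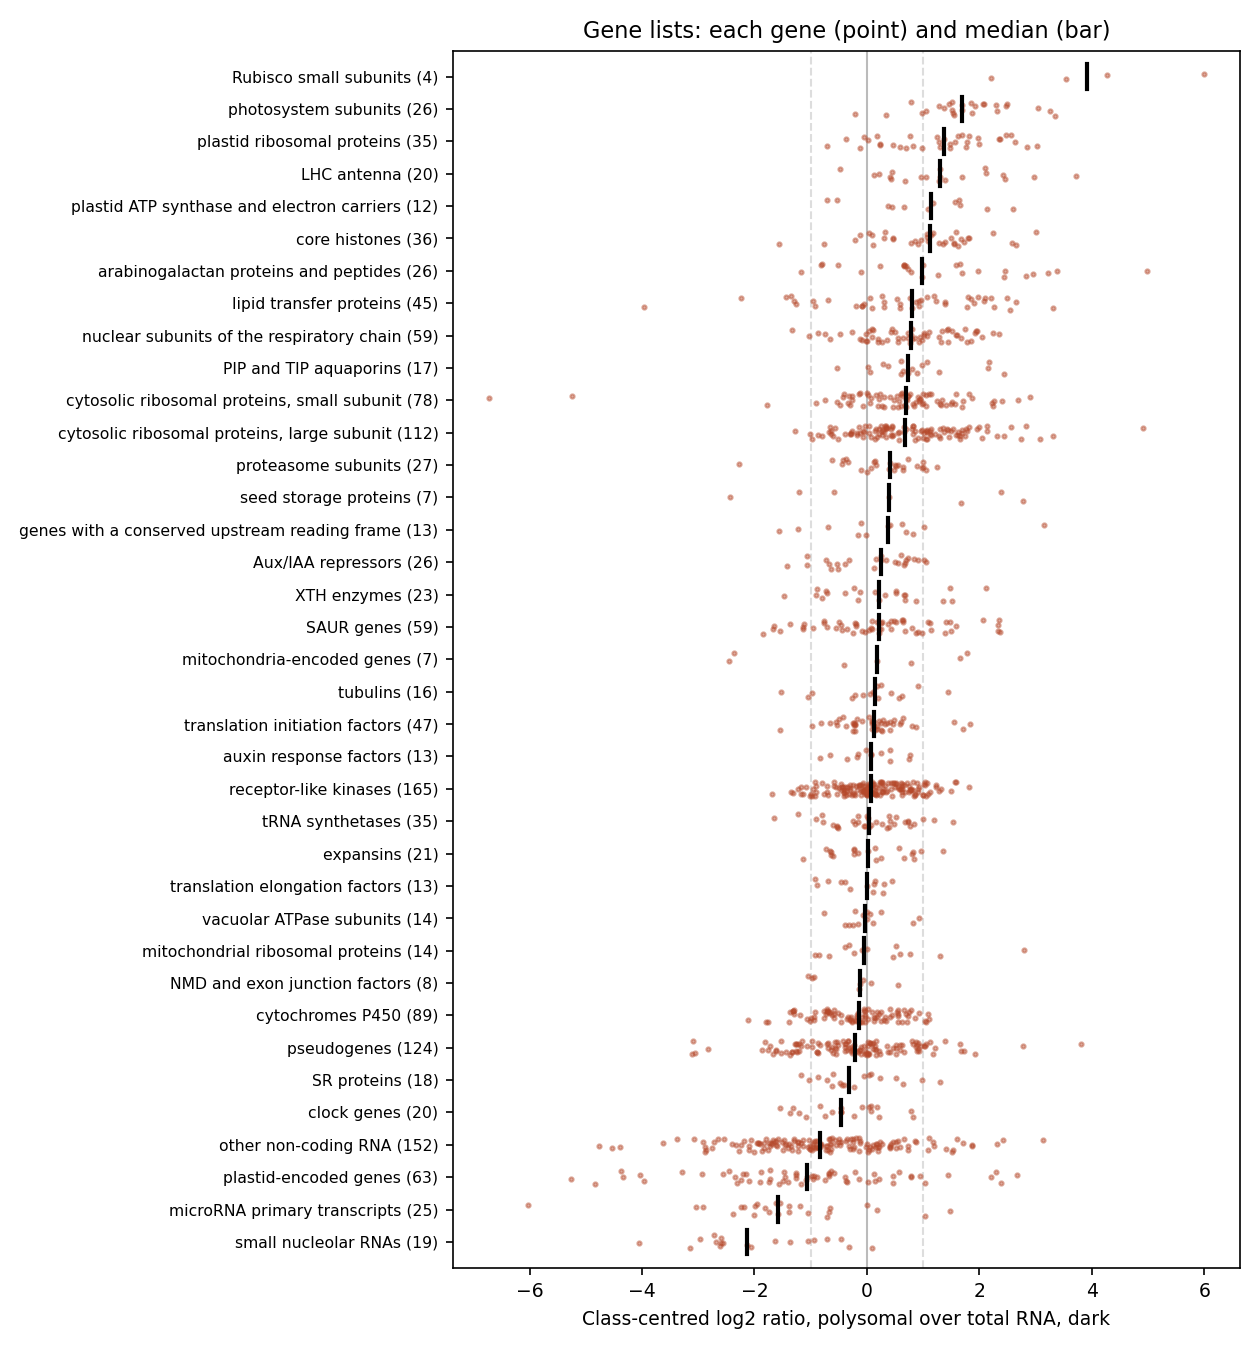
Class-centred log2 ratio of polysomal over total mRNA in the dark (horizontal axis) for each tested gene (points) of the lists with at least 4 genes, with the list's median as a bar and its number of genes in parentheses. Medians run from 3.91 for the Rubisco small subunits to -2.13 for small nucleolar RNAs, and dashed lines mark 2-fold.

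RNAs without a long reading frame were often below their length class. Most lower genes still had a coding sequence that could be scored for base composition, 1227 of 1390. That share was larger over all tested genes, with 16953 of 17428, and among higher genes, with 1439 of 1463. Of 25 precursor transcripts of microRNAs 18 were lower and none higher on both scales, of 19 small nucleolar RNAs 14 were lower and none higher, and of 152 other non-coding RNAs 62 were lower and 6 higher. Their medians were -1.58, -2.13 and -0.83. On RPKM alone 2 microRNA precursors and 14 other non-coding RNAs were higher, and the difference lies in genes whose polysomal length was far below the deposited one. Among members with the same length, 5 of 6 microRNA precursors were lower, at a median of -1.91, no small nucleolar RNA had the same length, and 39 of 93 other non-coding RNAs were lower against 1 higher, at -0.89. In the lit pair 12 of the 25 precursors, 13 of the 19 nucleolar RNAs and 62 of the 152 others were lower.

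The microRNA 156 genes share their product and differ in their precursors. MicroRNA 156 restrains SPL factors and keeps plants juvenile. The mature 5′ arm is identical in 3 of the measured genes, printed from RefSeq on TAIR10.1 with the seed, bases 2 to 8, in capitals:
miR156a-5p (chr2:10676534-10676553, minus): uGACAGAAgagagugagcac
miR156c-5p (chr4:15415491-15415510, minus): uGACAGAAgagagugagcac
miR156f-5p (chr5:9136126-9136145, plus): uGACAGAAgagagugagcac
Other families also share a seed among measured precursors:
miR160b (chr4:9888986-9889006, plus): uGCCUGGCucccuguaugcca
miR160c-5p (chr5:19009158-19009178, minus): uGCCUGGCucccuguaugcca
miR171b-3p (chr1:3961367-3961387, minus): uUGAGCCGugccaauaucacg
miR171c-3p (chr1:22930095-22930115, minus): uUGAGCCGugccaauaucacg

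MIR156f had 86 reads in polysomal and 2302 reads in total mRNA, or 12.2 polysomal and 391 total RPKM. Its length was the same in both fractions, it overlaps another locus, and its reads were 32.1-fold lower in polysomal mRNA (25.9 to 40.3). MIR156a had 82 polysomal and 4732 total reads, and 12.7 polysomal and 22.4 total RPKM. Its polysomal RPKM stands on 0.0828 kb and its total RPKM on the deposited 3.23 kb. If the reads were also counted over such unlike lengths, they cannot be compared either, so no fold is given for it. Its class-centred ratio was 0.18 by RPKM and -3.13 on reads. MIR156c had 1289 polysomal and 2676 total reads, 2.49-fold lower (2.33 to 2.66), on a polysomal length that was 74.0% of the deposited one.

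The size of the difference for the other printed families depends on the scale, since their polysomal lengths were 5.28% to 16.2% of the deposited ones. MIR160b had 0.942 RPKM in polysomal and 4.59 RPKM in total mRNA, with 6 polysomal and 438 total reads. MIR160c had 1.88 polysomal and 14.3 total RPKM, with 12 polysomal and 1448 total reads. Both were lower on either scale. MIR171c had 1.10 polysomal and 2.39 total RPKM, with 10 polysomal and 128 total reads. For MIR171b the scales differ before centring, with 9.24 RPKM in polysomal and 6.40 RPKM in total mRNA but 85 polysomal and 304 total reads. At the top of the list by RPKM, MIR167b had 48 reads in polysomal and 7 in total mRNA, more in polysomal mRNA on either scale before centring. Its class-centred ratio was 1.49 by RPKM and 0.16 on reads, so it was not past 2-fold on both scales. MIR166a had 23 polysomal and 270 total reads. Its class-centred ratio was 1.04 by RPKM and -0.40 on reads, so no direction is given for it. All 25 precursors together took 0.00444% of the polysomal and 0.0286% of the total reads.

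Among long non-coding RNAs of high abundance, GUT15 had 51.1 RPKM in polysomal and 244 RPKM in total mRNA, with 6817 polysomal and 29671 total reads. AT2G14878 had 73.9 polysomal and 378 total RPKM, and AT1G69252 had 37.6 polysomal and 220 total RPKM. The lowest of the list were AT1G11175, with 4.57 RPKM in polysomal and 72.3 RPKM in total mRNA, and AT2G26355, with 10.04 polysomal and 122.8 total RPKM. AT1G25175 had 392 polysomal and 381 total RPKM and reads that are not whole. Not every transcript annotated as non-coding was depleted. AT1G26218 had 19.7 RPKM in polysomal and 2.48 RPKM in total mRNA, and it overlaps another locus, as do 91 of the 152. Reads of overlapping genes cannot be told apart, since the use of strand is not given in the sources used here.

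Ribosomal RNA left over after the purification was measured in both fractions. The 18S copies AT3G41768 and AT2G01010 are near-identical. AT3G41768 had 1429 RPKM in polysomal and 811 RPKM in total mRNA, and AT2G01010 had 1.29 polysomal and 213 total RPKM. Summed, they had 2612 RPM in polysomal and 2509 RPM in total mRNA, a ratio of 1.04. The apparent 206-fold deficit in reads of AT2G01010 alone thus vanished in the sum. The shorter ribosomal RNA genes did not follow. AT3G41979, a 5.8S gene that overlaps another locus, had 186 RPKM in polysomal and 385 RPKM in total mRNA, 9.97-fold lower in reads. AT2G01020 had 256 polysomal and 35.1 total RPKM. Their polysomal lengths were 21.0% and 18.4% of the deposited ones, and their reads are not whole.

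**Figure D4:**
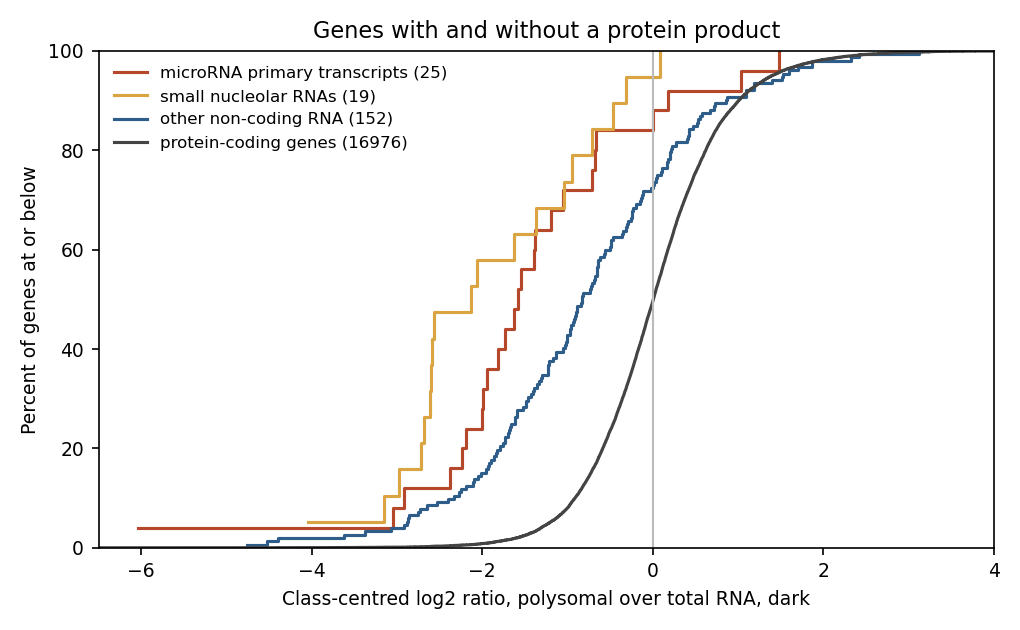
Cumulative percentage of genes (vertical axis) at or below a class-centred log2 ratio of polysomal over total mRNA in the dark (horizontal axis), for 25 microRNA precursors, 19 small nucleolar RNAs, 152 other non-coding RNAs and, last, protein-coding genes. The curves of the RNAs without a protein product cross the middle of the plot left of the protein-coding curve, with medians of -1.58, -2.13 and -0.83.

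Transcripts of the organelles were spread widely. Of 63 plastid-encoded genes 29 were lower and 4 higher on both scales, with a median of -1.07. Together, however, they took 0.325% of the polysomal and 0.148% of the total reads, so their sum went the other way from their median. Of the 17 with the same length in both fractions 3 were lower and 3 higher, at -0.35, so most of the low calls rest on genes with unlike lengths. ATCG00950 had 568 RPKM in polysomal and 149 RPKM in total mRNA. ATCG00905 and ATCG00830 had 0 polysomal reads, against 393 and 727 reads in total mRNA. Where a plastid gene has a near-identical copy, its reads may be divided differently in each fraction. No sum over copies was taken, so the values of these single genes are uncertain. Polysomal reads were not whole in 22 of the 63. Of 7 mitochondria-encoded genes 1 was higher and 2 lower, and together they took 0.107% of the polysomal and 0.0654% of the total reads. Of 124 pseudogenes 9 were higher and 27 lower (21.8%), with a median of -0.20.

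Base composition went along with the ratio within length classes. The share of G or C at the third codon position could be scored for 16953 genes. Its median was 45.9% in the genes higher in polysomal mRNA, 41.5% in those lower and 41.9% in all 16953. Of the 768 genes with 55% or more, 27.3% were higher and 6.25% lower. Of the 1048 genes under 35%, 5.53% were higher and 10.7% lower. The median class-centred ratio was 0.50 in the band of 55% and over, and -0.14 in that under 35%. Within the class of 0.75 to 1 kb, genes with 50% and over had a median of 0.22 and genes under 40% had -0.17. In the class of 2 to 2.5 kb the values were 0.25 and -0.07. The rank correlation across the 16953 genes was weak, at 0.15.

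**Figure D5:**
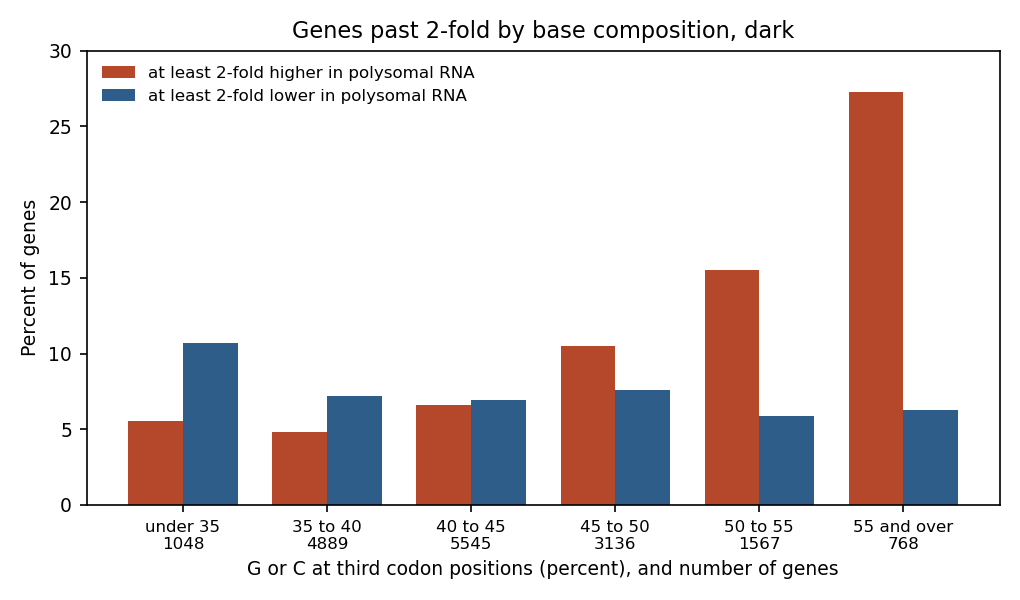
Percentage of genes (vertical axis) at least 2-fold higher and at least 2-fold lower in polysomal mRNA on both scales, in 6 bands of G or C at the third codon position (horizontal axis, in percent, with the number of genes). The share of higher genes is 5.53% in the band under 35% and 27.3% in that of 55% and over, and the share of lower genes is 10.7% and 6.25% in the same bands.

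Genes with many exons were seldom called in either direction. Of genes with 10 or more exons 3.75% were higher and 4.94% lower. Of genes with a lone exon 11.1% were higher and 9.63% lower, and of those with 2 to 4 exons 11.7% and 8.54%. Genes higher in polysomal mRNA had a median of 3 exons, genes lower 4 and all genes 5. Genes with 10 or more exons had a median length of 2.35 kb and those with a lone exon 1.31 kb. By length alone, 12.5% of genes of 0.75 to 1 kb were higher and 13.6% lower, against 4.61% and 4.25% of those of 2.5 to 3 kb. Whether exon number adds to length was not tested.

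Retained introns were more often at least 10 percentage points lower than higher in polysomal mRNA, though their median level was equal. Retained introns often bring an early stop codon, and such mRNAs may be degraded or held in the nucleus. The authors' percentages give the share of a gene's transcripts with the event, and the reads behind the polysomal percentages are unknown. Over 4330 retained introns in 3293 genes the median was 27.5% in polysomal and 27.5% in total mRNA, and the median of the differences was -1.80 percentage points. By at least 10 points, 787 introns (18.2%) were higher and 1139 (26.3%) lower in polysomal mRNA. The difference was not uniform over levels. For introns with a mean of 10 to 25% it was -5.55 points, and for those of 75 to 90% it was -3.95 points, with 93 higher and 180 lower. For those of 25 to 50% it was 0.03 points, with 279 introns higher and 273 lower. For those of 50 to 75% it was also 0.03 points, with 203 higher and 200 lower. The bands of 0 to 10% and 90 to 100% had -1.36 and -0.05 points. In the lit pair the median difference over all introns was -5.17 points. Genes lower in polysomal mRNA on both scales had a median of 37.7% in polysomal and 48.7% in total mRNA, and a median difference of -3.82 points over 408 introns. For the 271 introns of higher genes it was -1.53 points. With at least 20 event reads in total mRNA the overall difference was -4.77 points over 2277 introns, so the value depends on that limit. Their median was 33.3% in polysomal and 42.2% in total mRNA. The limit is set on total mRNA alone and favours introns high there, so this value cannot show a larger difference. All listed events reach 5% in the dark or in the light in each fraction.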

How the data were processed

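Per the labels, 1 library each was made of polysomal and of total mRNA in darkness and after 4 h of light; the submitters' processing notes name TAIR10. Which aligner and counting program were run, and whether strand was used, is not given in the sources used here. Per the file headers, the authors deposited read counts for total mRNA, estimated counts for polysomal mRNA (some not whole), RPKM by library, gene length, and the percent of each splicing event; their log2 ratios and p-values, also per the file headers, were not used. Reads shared between copies would give values that are not whole.

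From these, log2 ratios of (RPKM + 1) were taken for genes averaging 1 RPKM or more over both dark libraries and centred on the median of 11 length classes, with 2-fold as the call. Ratios on reads used the deposited length in both fractions. Intervals are exact binomial, rounding estimated counts. Gene models, names and sequences came from RefSeq's TAIR10.1 annotation, with an entry for 17303 of the 17428 tested genes. Named genes were the 10 highest and 10 lowest with a symbol and at least 10 RPKM, the ends of each length class, the ends of each of 39 lists and the most abundant non-coding RNAs; well-measured genes and genes with opposite calls in the light were added after values were seen. A gene that the rule names is not reported here. The members and lists were chosen with earlier results of these data known. The procedure was tested on simulated data. Python 3.11.15, numpy 2.4.6, pandas 2.3.3 and scipy 1.17.1 were used.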

Additional observations from a re-analysis of the deposited data

Results flagged for a closer look

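Of the genes past 2-fold on both scales in both pairs, 4 lay on opposite sides of their length class in the dark and the lit pair. Genes past 2-fold in the dark alone could also change side, as XTH33 did, from 1.52 in the dark to -0.35 in the light. The 4 genes were picked out after their values had been seen, and the difference between the pairs was not tested. AT2G28671 stood at 1.70 (class-centred log2 ratio) in the dark pair and -5.85 in the lit pair. It had 79.0 RPKM in polysomal and 27.7 RPKM in total mRNA of the dark, and in the light 0.01 RPKM, the value written for 0 reads, in polysomal and 75.4 RPKM in total mRNA. AT3G13700, annotated with RNA-binding motifs, stood at -2.08 in the dark and 2.53 in the light, with 0 polysomal and 779 total reads in the dark, and 2.49 polysomal RPKM in the light, where total mRNA is listed at 0. AT1G53903 stood at 1.84 in the dark and -1.58 in the light, with 471 polysomal reads and 1 total read in the dark, and 5.01 polysomal and 6.11 total RPKM in the light. AT5G50175 stood at 2.14 in the dark and -1.21 in the light, with 1280 polysomal and 54 total reads in the dark. In the light it had 0.104 polysomal and 0.01 total RPKM, too low for a direction, and its negative value there is the median of its length class subtracted from a ratio near 0. AT2G28671 and AT3G13700 overlap other loci.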

How the results depend on the processing

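The 40 genes named as the 10 highest and 10 lowest, or as the 12 highest and 12 lowest of the well-measured genes, kept their sign in all 415 values under the alternatives. None of the values came under 2-fold. These genes were picked for extreme values in the same libraries, and an alternative that leaves a gene out gives no value for it. Little change could therefore be seen, and this is no independent check. Of the 17 lists with a median beyond 0.5, all 179 alternative medians kept their sign and 5 lay within 0.5 of 0. MIR166a went to -0.40 with RPKM recomputed on 1 length. Uncentred counts became 1935 higher without overlapping loci, 1644 higher and 6311 lower with nuclear sums equal, and 1344 lower with a pseudocount of 5 RPKM. Class-centred counts became 1169 higher without overlapping loci, 1045 higher and 989 lower with genes of the same implied length, and 758 lower with a pseudocount of 5. Leaving out genes lowers these counts by construction. The gap between genes of 0.5 to 0.75 kb and of 3 to 4 kb, 2.47 in the text's setting, was 2.97 with a pseudocount of 0.1, 1.69 with a pseudocount of 5 and 3.02 with a mean of at least 5 RPKM. Of the 4 lists with a median of -0.5 or less, 2 remained low with the same implied length and 0 with classes of coding length, which leave out non-coding RNA. The retained-intron difference was -4.77 points with at least 20 event reads in total mRNA, a limit that favours introns high in that fraction. The cause of the other shifts was not tested. Both scales, implied length, coding-length classes and the recomputed length gap were chosen after seeing the data. Classes of protein length were not run. No paired analysis was possible because each group holds 1 library. Depth limits genes with few reads, and the read counts of total mRNA hold no 0, although its RPKM can be listed at 0.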

Other observations

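Other kinds of splicing event had medians of the differences above 0. Over 2802 events of alternative donor or acceptor sites, the median was 31.8% in polysomal and 30.1% in total mRNA of the dark, and the median difference was 0.62 percentage points. Over 130 events of exon skipping it was 2.02 points, with 26.9% of them at least 10 points higher and 10.8% at least 10 points lower in polysomal mRNA. The 267 cryptic exons had medians of 44.4% in polysomal and 36.8% in total mRNA, and a median difference of 3.61 points. The reads behind the polysomal percentages are unknown.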
